A study of Mus musculus with 4 samples.

Results

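The genes described are 9 cathepsins (Ctsa, Ctsb, Ctsc, Ctsd, Ctsh, Ctsk, Ctsl, Ctss and Ctsz) and cystatin C (Cst3), 10 genes chosen by name out of 54115 genes with summed counts, of which 18758 were tested. All 10 had enough reads to be tested. They were read in RNA-seq libraries of tumours that mice grew from injected MC38 cells, a mouse colon adenocarcinoma line. The control group was 2 tumours of mice given 10 daily intraperitoneal injections of saline. The other group was 2 tumours given 10 daily intraperitoneal injections of vanoxerine at 25 mg/kg, a drug that blocks dopamine reuptake. The labels give neither the strain, age or sex of the mice, nor whether the tumours of a group came from separate animals, so the p-values reflect only how far these libraries differed from each other, and that spread may be technical.

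Cathepsins are proteases of endosomes and lysosomes, the acidic compartments where cells break down what they take up. Most are cysteine proteases (here Ctsb, Ctsc, Ctsh, Ctsk, Ctsl, Ctss and Ctsz), while Ctsd is an aspartic and Ctsa a serine protease. They are made as inactive precursors, sorted to the lysosome by mannose 6-phosphate receptors and activated there, and cystatin C is a small secreted protein that blocks the cysteine members. Macrophages are rich in cathepsins, and tumour cells and fibroblasts make several of them too.

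All 10 genes were higher in vanoxerine than in saline tumours, but by very different amounts. Ctsc, Ctsk, Ctsh, Ctss, Ctsb and Ctsd rose 2.42-fold to 6.19-fold, whereas Ctsz, Cst3, Ctsa and Ctsl rose only 1.14-fold to 1.25-fold. No gene lay between these sets: the smallest log2 fold change of the first was 1.28 (Ctsd) and the largest of the second was 0.33 (Ctsz). The median log2 fold change of the 10 genes was 1.31, against -0.01 over all genes tested. The test was edgeR's quasi-likelihood test with Benjamini-Hochberg adjustment over all genes, called at an adjusted p under 0.05, and it called 10 of the 10 higher, where 36.9% of all genes tested were called and 21.0% were called higher. For each of the 10, both vanoxerine libraries also lay above both saline libraries, which held for 35.8% of all genes tested. None of the 10 was called lower, as 15.9% of all genes were, and groups did not overlap in either direction for 70.7% of all genes. The split of calls over all genes depended on the scaling, with 3933 higher and 2983 lower by trimmed-mean (TMM) factors but 2895 higher and 4525 lower by upper-quartile factors.

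**Figure D1:**
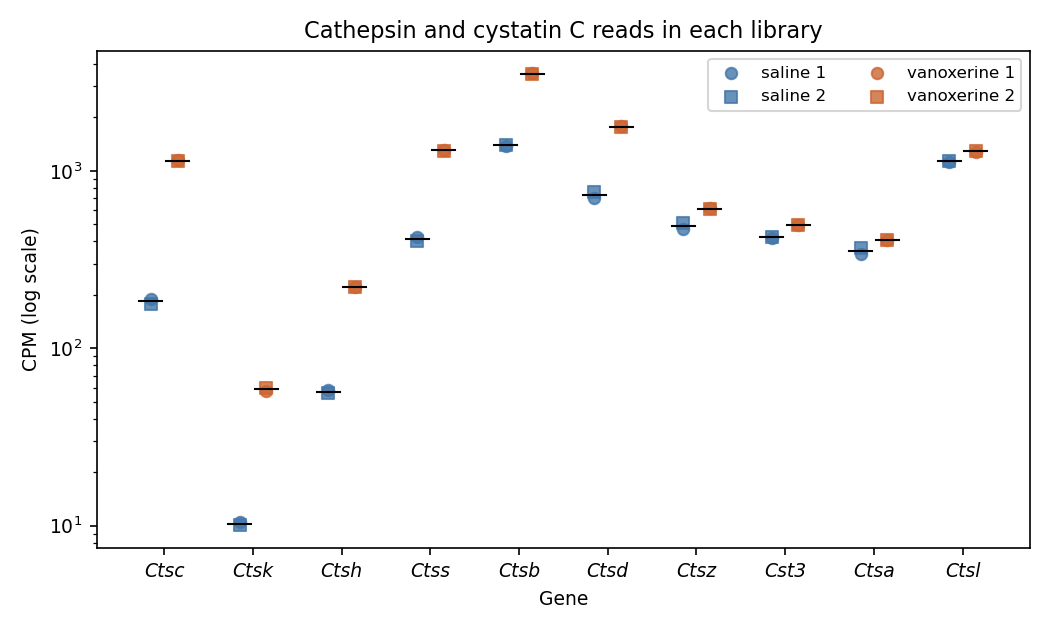
Reads of each gene in each library, as counts scaled to library size (CPM, log axis), with circles and squares for replicates 1 and 2 and a black line at the mean of the 2 libraries of a group. The replicates lie almost on top of each other, and the saline and vanoxerine libraries are far apart for Ctsc, Ctsk, Ctsh, Ctss, Ctsb and Ctsd and close together for Ctsz, Cst3, Ctsa and Ctsl.

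Because Ctss and Ctsk are neighbours on chromosome 3 and Ctsc rose most, the sequences upstream of their start sites are shown first, with Ctsz for comparison as a gene that rose little. They run 5′ to 3′ from 250 bases before the RefSeq start to 20 after it on GRCm38.p6. Capitals mark any match, on either strand, to CACGTG (the E-box core of the lysosomal CLEAR element), to GAGGAAGT (a core of the myeloid factor PU.1) or to the interferon-stimulated response element, and of these 4 windows only those of Ctss and Ctsc have any.
Ctss, chr3:95526536-95526805, forward strand: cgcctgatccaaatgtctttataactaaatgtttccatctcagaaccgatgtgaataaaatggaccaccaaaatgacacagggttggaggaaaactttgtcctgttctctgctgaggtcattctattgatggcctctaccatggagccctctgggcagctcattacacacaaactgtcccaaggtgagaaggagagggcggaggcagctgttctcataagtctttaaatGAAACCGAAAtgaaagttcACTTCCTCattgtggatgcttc
Ctsk, chr3:95498960-95499229, forward strand: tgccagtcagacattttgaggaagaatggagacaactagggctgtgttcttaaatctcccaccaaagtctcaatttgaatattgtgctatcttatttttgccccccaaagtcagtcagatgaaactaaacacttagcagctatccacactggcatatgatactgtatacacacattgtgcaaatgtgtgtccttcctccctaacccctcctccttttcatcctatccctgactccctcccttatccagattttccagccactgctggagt
Ctsc, chr7:88277835-88278104, forward strand: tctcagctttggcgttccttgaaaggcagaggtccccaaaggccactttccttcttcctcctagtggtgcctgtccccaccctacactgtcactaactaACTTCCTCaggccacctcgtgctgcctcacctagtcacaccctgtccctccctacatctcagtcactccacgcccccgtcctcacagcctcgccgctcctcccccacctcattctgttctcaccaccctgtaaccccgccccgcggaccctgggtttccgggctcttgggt
Ctsz, chr2:174439020-174439289, reverse strand: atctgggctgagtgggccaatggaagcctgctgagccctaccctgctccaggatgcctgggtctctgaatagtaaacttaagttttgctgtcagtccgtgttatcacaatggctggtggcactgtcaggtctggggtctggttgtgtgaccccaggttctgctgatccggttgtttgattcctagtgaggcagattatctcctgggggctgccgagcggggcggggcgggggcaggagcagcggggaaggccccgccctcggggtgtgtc

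RefSeq's table held 9 such windows for 8 of the 10 genes, 2 of them for Ctsa, and each was searched over 300 bases, 50 of them after the start. GAGGAAGT was found for Ctss, across the start site, and for Ctsc, and 3.20% of 32851 windows of all genes hold it. The shorter GAGGAA within it was found for Ctss, Ctsc, Ctsk and Cst3 and is held by 28.3% of windows. The interferon-stimulated response element was found for Ctss alone of the 8 genes and is held by 3.44% of windows. CACGTG was found for Ctsd, Ctsl and Ctsa, the last in the window of its second start site, and is held by 7.15% of windows. The longer TCACGTG, which overlaps it, was found for Ctsd and Ctsa and is held by 3.77%. The RefSeq start of Ctsd lies 211 bases downstream of the start of its main transcript in the annotation used for counting, and that of Ctsl 214 bases upstream. The windows of Ctsk and Ctss had 43.7% and 44.0% G and C and those of the other 6 genes 50% to 67.3%, where the median of all windows was 52.7%. These matches describe the letters and say nothing of binding in the tumours.

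Ctsc (chromosome 7, 88278085 to 88310888, forward strand) encodes dipeptidyl peptidase I, which activates the granule proteases of cytotoxic lymphocytes, mast cells and neutrophils. Counts scaled to library size (CPM) were 190.2 and 178 for saline replicates 1 and 2 and 1148 and 1130.4 for vanoxerine replicates 1 and 2, so the groups were far apart. The rise was 6.19-fold, a log2 fold change of 2.63 ± 0.049 (SE; edgeR adjusted p = 5.46e-06). It ranked 269 among the 18758 log2 fold changes from the highest down.

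Ctsk (chromosome 3, 95499256 to 95509362, forward strand) encodes the collagen-degrading cathepsin best known from osteoclasts. It was the least abundant of the 10, with 10.4 and 10.0 CPM in the controls against 57.8 and 59.5 CPM after vanoxerine. It rose 5.73-fold, or by 2.52 ± 0.069 on the log2 scale (edgeR adjusted p = 1.13e-05), and rested on 797 and 716 reads in saline. Ctsc and Ctsk were the 2 largest changes, and their difference of log2 fold change was not tested.

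Ctsh (chromosome 9, 90054152 to 90076089, forward strand) encodes an aminopeptidase that also processes surfactant protein in the lung. Both controls were low, at 58.0 and 55.6 CPM, and both vanoxerine libraries high, at 222.1 and 221.7 CPM. That is 3.91-fold higher, with a log2 fold change of 1.97 ± 0.049 (edgeR adjusted p = 8.72e-06).

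Ctss (chromosome 3, 95526786 to 95556403, forward strand) encodes the protease that cuts the invariant chain off MHC class II molecules in antigen-presenting cells. Its control levels of 426 and 400.4 CPM lay well under the 1313 and 1297 CPM of the treated tumours. It rose 3.16-fold, by 1.66 ± 0.044 (edgeR adjusted p = 1.10e-05). Ctss starts 17423 bases after the end of Ctsk on the same strand. The next tested protein-coding genes outside the pair, named after their values were seen, rose less than Ctsk and Ctss. Arnt, before Ctsk, went from 48.7 ± 3.18 to 58.7 ± 4.48 CPM (mean ± SD, n = 2; log2 fold change 0.27, edgeR adjusted p = 0.0403). Golph3l, after Ctss, went from 16.6 ± 2.74 to 26.8 ± 0.616 CPM (0.69, edgeR adjusted p = 0.00775).

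Ctsb (chromosome 14, 63122462 to 63145923, forward strand), an endopeptidase and carboxydipeptidase, had the most reads of the 10. From 1388 and 1394 CPM in the controls it reached 3545 and 3506 CPM after treatment, and rose 2.53-fold (1.34 ± 0.030; edgeR adjusted p = 6.85e-06). Ctsd (chromosome 7, 142375911 to 142388038, reverse strand), the main aspartic protease of lysosomes, went from 704 and 758 CPM in the controls to 1779 and 1760.4 CPM after treatment. It rose 2.42-fold (1.28 ± 0.046; edgeR adjusted p = 2.51e-05). The 3′ end of Ctsb overlaps the end of Fdft1 on the opposite strand, which was at 28.9 to 56.4 CPM over the 4 libraries. The nearest tested protein-coding genes that do not overlap Ctsb were named after their values were seen. Wdfy2, before it, had a log2 fold change of 1.70 (edgeR adjusted p = 4.95e-05), larger than that of Ctsb. Neil2, after it, was at 0.24 (edgeR adjusted p = 0.541).

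The other 4 genes moved far less. Ctsl (chromosome 13, 64359337 to 64370890, reverse strand), an abundant endopeptidase that many cell types make, had 1128 and 1134 CPM in the controls against 1284 and 1302 CPM in treated tumours. Its log2 fold change was 0.19 ± 0.033 (edgeR adjusted p = 0.00662). Ctsz (chromosome 2, 174427493 to 174439039, reverse strand), a carboxypeptidase, had 470.2 and 507 CPM in the controls against 616 and 609 CPM in treated tumours, a log2 fold change of 0.33 ± 0.049 (edgeR adjusted p = 0.00382). For both genes the groups did not overlap, but the gap between them was small.

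Ctsa (chromosome 2, 164832873 to 164841032, forward strand) encodes the protective protein that holds beta-galactosidase and neuraminidase together in lysosomes. It had 339 and 367 CPM in the controls against 407 and 409.8 CPM in treated tumours, a log2 fold change of 0.21 ± 0.051 (edgeR adjusted p = 0.0225). Its 3′ end overlaps Pltp on the opposite strand, which went from 39.7 and 44.8 CPM to 160 and 167 CPM, and no source used here says whether the counting used strand. Cst3 (chromosome 2, 148871722 to 148875692, reverse strand), the inhibitor, had 420.3 and 422 CPM in the controls against 497 and 498 CPM in treated tumours. Its log2 fold change was 0.24 ± 0.038 (edgeR adjusted p = 0.00470).

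The calls of Cst3, Ctsa and Ctsl depended on the processing, and those of the other 7 genes did not change under any of 18 alternatives. With upper-quartile factors, which shift the log2 fold changes of all genes by a median of -0.13, these 3 were at 0.11, 0.076 and 0.06 (edgeR adjusted p = 0.0946, 0.343 and 0.274). Without vanoxerine replicate 1 they were at 0.25, 0.23 and 0.22 (edgeR adjusted p = 0.0820, 0.153 and 0.0845), and without vanoxerine replicate 2 at 0.25, 0.22 and 0.20 (edgeR adjusted p = 0.0809, 0.162 and 0.113).

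**Figure D2:**
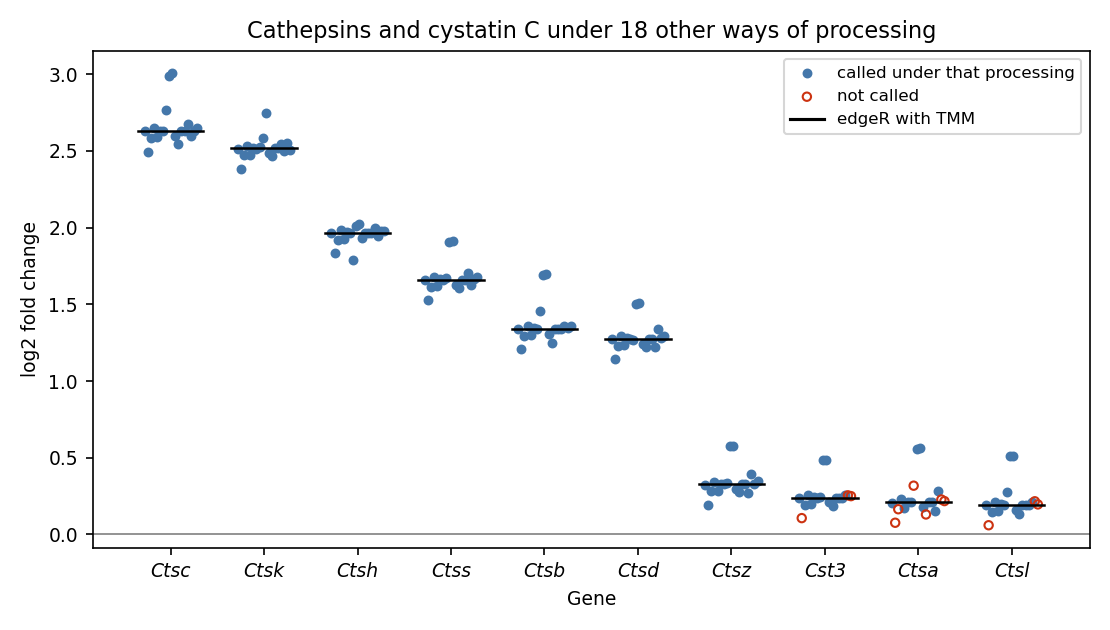
log2 fold change of each gene (vertical axis) under 18 other ways of processing, with filled points where the gene was called, open points where it was not, and a black line at the value of edgeR with TMM factors. All points lie above 0, and open points occur for Cst3, Ctsa and Ctsl only.

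Replicates agreed closely, more so in the vanoxerine group. The median absolute log2 ratio between the 2 libraries of a group was 0.075 over the 10 genes in saline and 0.016 in vanoxerine. The widest spread among the 10 was that of Ctsa in saline, at 0.11, and Ctsz and Ctsd in saline were also at 0.11. In the authors' deposited table, whose library columns carry the numbers 3 and 4 rather than 1 and 2, the 10 genes were all higher as well, with log2 fold changes from 0.25 (Cst3) to 2.77 (Ctsc). The authors' deposited table gives Ctsh 1.78, Ctsb 1.46 and Ctsl 0.28, and its highest adjusted p among the 10 is 0.00639 (Ctsa). Whether that table rests on these same libraries is not stated, so it cannot be read as independent replication.

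Together the 10 genes took 0.520% and 0.532% of the reads assigned to genes in the controls, against 1.07% and 1.06% in treated tumours. Levels of different genes are compared per length, as transcript levels scaled to length and library (TPM). In saline, Ctsl was the most abundant of the 10, at 753 TPM in both libraries. Cst3 (522 and 504 TPM) and Ctsb (508 and 501 TPM) came next with overlapping ranges, then Ctsz, Ctsd and Ctss between 286 and 309 TPM, also overlapping. Ctsa had 139 and 159 TPM, Ctsc and Ctsh overlapped between 68.6 and 75.4 TPM, and Ctsk had 6.50 and 6.06 TPM. The first place of Ctsl rests in part on short coding transcripts. Its transcript with most reads had 440 and 436 TPM alone, below the 522 and 504 TPM of Cst3.

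The order was different in vanoxerine, where no neighbours overlapped. Ctsb led with 1650.3 and 1620 TPM, followed by Ctss (1127 and 1106 TPM), Ctsl (1070 and 1081 TPM), Ctsd (869 and 855 TPM) and Cst3 (721 and 714 TPM). Ctsc, with 582 and 576 TPM, was now above Ctsz (458 and 447 TPM) and Ctsa (221 and 219 TPM), both of which were higher than Ctsc in saline. Ctsh had 284 and 311 TPM, and Ctsk was last with 42.1 and 43.1 TPM. The place of Ctsb rests on a short retained-intron transcript, Ctsb-202. From protein-coding transcripts alone, Ctss led in vanoxerine (1127 and 1106 TPM), followed by Ctsl (1027 and 1039 TPM), Ctsd (867 and 854 TPM), Cst3 (719 and 712 TPM) and then Ctsb (603 and 592 TPM). Ctsc (496 and 497 TPM), Ctsz, Ctsa (150.1 and 148 TPM), Ctsh (104 and 107 TPM) and Ctsk came after it. In saline the same count put Ctsb, at 207 and 201.2 TPM, below Ctsl, Cst3, Ctss, Ctsz and Ctsd. By mean TPM, Ctsc moved from rank 1553 to rank 259 among all genes tested and Ctss from 408 to 152. Levels in TPM are shifted against CPM: with log2(TPM + 1) and limma-trend the log2 fold changes of all genes were higher by a median of 0.22, and Ctsl was at 0.51.

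The make-up of the cysteine cathepsins changed with these rises. Ctsl fell from 37.2% and 37.7% of their summed TPM in saline to 20.5% and 20.9% in vanoxerine, and Ctsz went from 14.7% and 15.5% to 8.78% and 8.63%. Ctsc went from 3.73% and 3.44% to 11.2% and 11.1%, Ctss from 15.2% and 14.3% to 21.6% and 21.3%, and Ctsb from 25.1% in both to 31.7% and 31.2%. Counting protein-coding transcripts only, Ctsl went from 45.1% and 44.8% to 26.6% and 27.1%, and Ctsb from 12.5% and 12.4% to 15.6% and 15.4%. By that count the largest share was that of Ctsl in saline and that of Ctss in vanoxerine, at 29.2% and 28.9%.

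Cystatin C rose less than the summed level of the cysteine cathepsins, but about as much as Ctsl. In CPM, Ctsl rose 1.14-fold and Cst3 1.18-fold. In TPM, the unit of the ratio, mean Ctsl went from 753 to 1075 and mean Cst3 from 513 to 718. That is a slightly smaller factor for Cst3, but the order depends on the transcripts counted. The coding transcript Ctsl-201 alone went from 440 and 436 TPM to 567 and 570 TPM, a smaller factor than that of Cst3. Differences between genes were not tested. The TPM of Cst3 per TPM of the 7 cysteine cathepsins was 0.258 and 0.252 in the controls but 0.1384 and 0.1378 in treated tumours. The group means were 0.255 ± 0.0039 and 0.138 ± 0.00039 (SD, n = 2), and the groups did not overlap. With 2 libraries against 2 the exact two-sided permutation p was 0.333, the smallest that this design allows. The means were 0.312 and 0.186 from protein-coding transcripts only, and 0.115 and 0.061 in CPM, which is not per length. This is a ratio of RNA levels, and protein and protease activity were not measured.

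**Figure D3:**
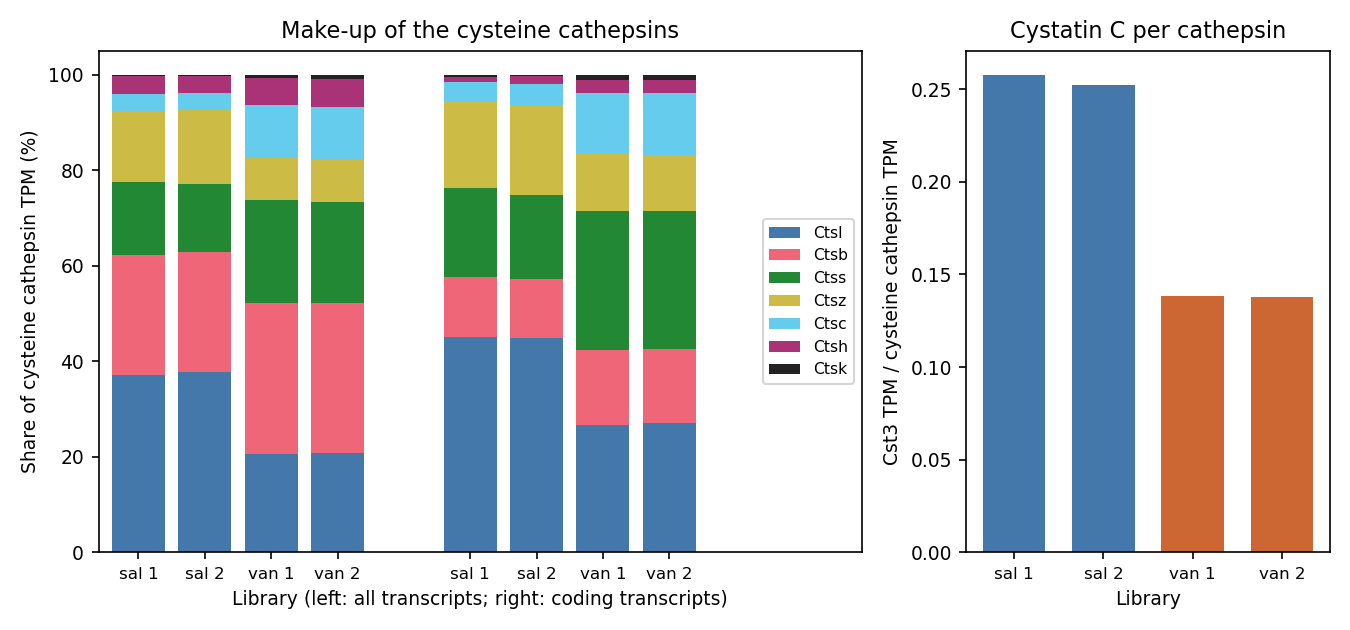
Left, share of each gene in the summed TPM of the 7 cysteine cathepsins in each library (sal, saline; van, vanoxerine), from all transcripts and from protein-coding transcripts; right, Cst3 TPM divided by that sum. The Ctsl share is smaller in both vanoxerine libraries, and the Cst3 ratio falls from about 0.255 to about 0.138.

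Salmon's split of reads among transcripts bears on these levels per length. Ctsb had 2 transcripts above 5% of its TPM: the coding Ctsb-201, of 4743 bases, took 82.2% to 84.6% of the gene's reads but only 36.5% to 40.6% of its TPM. Nearly all the rest went to Ctsb-202, a retained-intron model of 801 bases. For Ctsl, coding transcripts of 834 and 582 bases took 16.2% to 18.5% and 2.16% to 2.54% of reads. They held 31.3% to 32.9% and 7.64% to 9.19% of its TPM. The Ctsl transcript with most reads, of 1971 bases, had 567 and 570 TPM alone in vanoxerine. That is below the coding transcripts of Ctsd, Cst3 and Ctsb there. For Ctsh, the transcript with most reads in each library was Ctsh-202, annotated as a target of nonsense-mediated decay, with 60.5% to 69.0% of reads, and coding transcripts held only 21.3% to 30.8%. Ctsd-202 took 77.8% and 77.1% of Ctsd reads in the controls against 85.2% and 82.6% after treatment, with Ctsd-201 at 22.1% and 22.8% against 14.8% and 17.4%. Ctsk and Ctsz had a single annotated transcript each. These shares are estimates and were not tested.

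Ctss has 2 coding transcripts of 1355 bases each, whose exon 2 begins at base 95529434 (Ctss-201) or 95529437 (Ctss-202) of chromosome 3. The coding sequence of Ctss-201 is longer there by the 3 bases in capitals, between the last 20 bases of exon 1 and the following 20 bases of exon 2.
Ctss-201: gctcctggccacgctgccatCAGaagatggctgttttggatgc
Ctss-202: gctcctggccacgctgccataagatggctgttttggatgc
Ctss-202, the form without them, was assigned 84.0% and 95.0% of Ctss reads in the controls against 86.6% and 84.7% after treatment. The 2 saline libraries thus differed more from each other than the vanoxerine libraries did.

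Of 13 further cathepsin genes, 5 were tested, 4 were called higher and none lower. Ctsw, a cathepsin of cytotoxic lymphocytes, rose from 60.2 ± 0.581 to 77.0 ± 0.546 CPM (log2 fold change 0.36, edgeR adjusted p = 0.00237), a call lost without vanoxerine replicate 2 (0.36, 0.0625). Ctso rose from 20.4 ± 3.84 to 35.2 ± 1.11 CPM, and Ctsg, a serine protease of neutrophil and mast cell granules, from 9.12 ± 0.834 to 14.7 ± 0.310 CPM. Ctsf was at 0.218 ± 0.0683 and 1.01 ± 0.0586 CPM and lost its call in 6 of 17 alternatives. These were leaving out vanoxerine replicate 1 (2.16, edgeR adjusted p = 0.170) or replicate 2 (2.28, 0.143), the length offset (1.41, 0.177), protein-coding transcripts only (2.79, 0.192), and limma-trend on log2(TPM + 1) (0.40, 0.0686) and log2(TPM + 0.1) (1.25, 0.0913). Ctse, at 1.02 ± 0.807 CPM in the controls against 2.78 ± 0.0489 CPM in treated tumours, was not called (edgeR adjusted p = 0.0983). It was called in 6 of 18 alternatives, one of them the threshold of 0.1: by DESeq2 (adjusted p = 0.0304), by limma-voom (1.75, adjusted p = 0.0364), and by edgeR with a replicate block (1.69, adjusted p = 0.0416), without saline replicate 1 (0.81, 0.0208) and without saline replicate 2 (2.65, 5.54e-07). The other 8, cathepsins known from the placenta, had 1 read in all.

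Other genes of the cystatin family and serpins, taken as a list, did not move together. Of 18 genes of the list, 11 were tested, 3 were called higher and 3 lower, and the median log2 fold change was 0.05. Its sign changed among the alternatives (-0.57 to 0.30), which did not all cover the same genes. The -0.57, without vanoxerine replicate 1, was over 13 genes. With 11 genes, upper-quartile factors gave -0.088 and log2(TPM + 0.1) gave 0.30. Cstb, the intracellular cystatin B, had 228 ± 19.9 CPM in the controls against 236 ± 3.82 CPM in treated tumours (edgeR adjusted p = 0.635). Cst7, the cystatin F of leukocytes, was at 55.3 ± 1.0 CPM and 61.2 ± 0.306 CPM (edgeR adjusted p = 0.0673). Of 18 alternatives, 3 called Cstb higher and 5 called Cst7 higher, among them limma-trend on log2(TPM + 1) for both (0.30 and 0.38, adjusted p = 0.0423 and 0.0170). Among the stefins of neutrophils, Stfa2l1 fell from 18.9 ± 3.43 to 11.6 ± 1.3 CPM and Stfa2 from 1.90 ± 0.203 to 0.691 ± 0.16 CPM, and reads of these near-identical copies are uncertain. Neither was called without vanoxerine replicate 1 (edgeR adjusted p = 0.106 and 0.163), nor Stfa2 without vanoxerine replicate 2 (0.0803), and in all Stfa2l1 lost its call in 4 and Stfa2 in 3 of 18 alternatives. The other tested stefins, Stfa1 (-0.76, edgeR adjusted p = 0.219) and Stfa3 (1.02, edgeR adjusted p = 0.639), went in opposite directions and were not called. Cst12 (-2.55, edgeR adjusted p = 0.114) was not called either, and Stfa3 and Cst12 had only 34 and 38 reads in all. Fetub, a secreted cystatin family protein, fell from 14.2 ± 0.734 to 4.03 ± 0.0052 CPM. The serpin genes Serpinb1a (0.88), Serpinb6a (0.25) and Serpinb6b (0.27, on the log2 scale) were called higher, and each lost its call without vanoxerine replicate 1 (edgeR adjusted p = 0.106, 0.149 and 0.166) and without vanoxerine replicate 2 (0.0575, 0.108 and 0.187). Serpinb1a lost its call in 5 of 18 alternatives and Serpinb6a in 4, and Serpinb6b lost it in 5 and changed sign in 1 more.

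**Figure D4:**
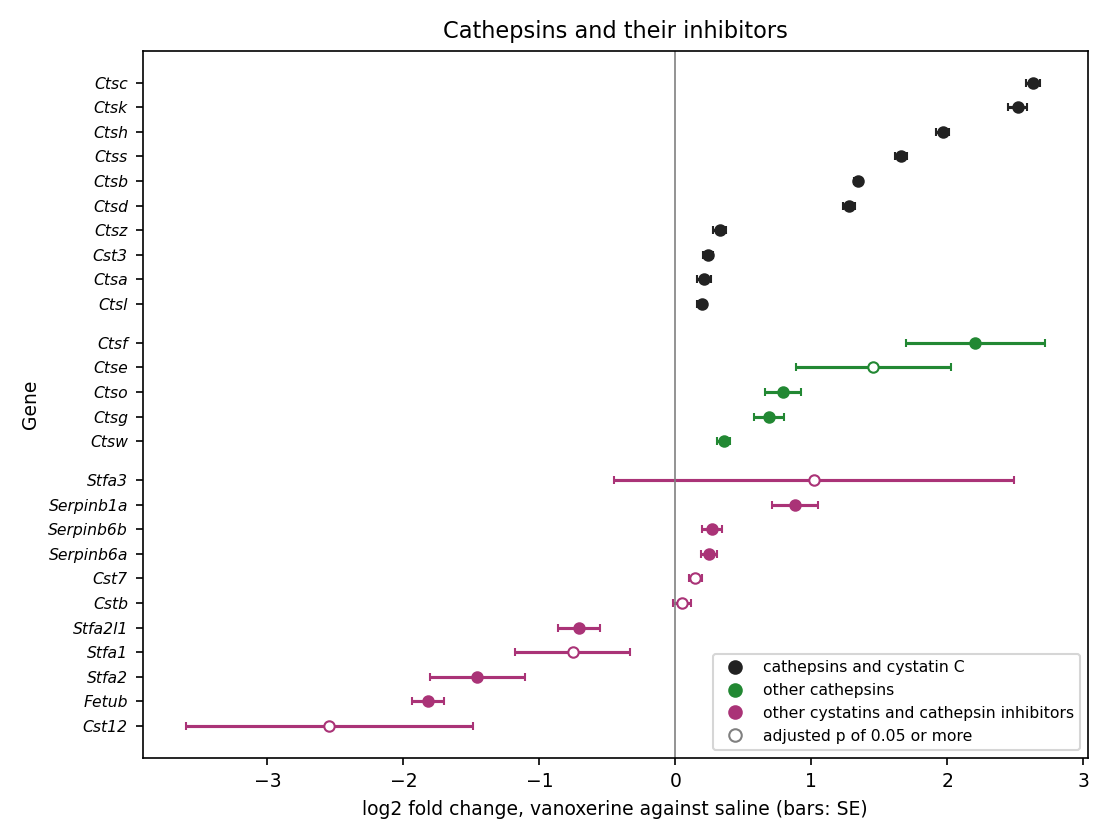
log2 fold change of vanoxerine against saline with its standard error for the 10 genes, for further cathepsins and for other cystatin family and serpin genes. Open points mark an adjusted p of 0.05 or more. The 10 genes and the other cathepsins lie to the right of 0, and the cystatin family and serpin genes lie on both sides.

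Genes that activate, hold or sort cathepsins were called higher in 19 of 20 and lower in none, with a median log2 fold change of 0.53, and 14 to 19 were called higher under the alternatives. Lgmn, the asparagine endopeptidase that converts several cathepsins to their mature forms, rose from 356 ± 12.0 to 1267 ± 6.78 CPM (1.83 ± 0.042; edgeR adjusted p = 6.85e-06). Psap, whose product prosaposin travels with procathepsin D, rose from 1394 ± 20.6 to 4034 ± 36.4 CPM. Sort1, the sorting receptor sortilin, rose from 1.91 ± 0.423 to 15.7 ± 1.26 CPM (3.03 ± 0.19). Tfeb, the transcription factor known for switching on lysosomal genes, rose from 14.4 ± 0.359 to 19.2 ± 0.101 CPM (0.41, edgeR adjusted p = 0.0124), a call lost without vanoxerine replicate 1 (0.42, 0.125) or replicate 2 (0.43, 0.118), and in 5 of 18 alternatives in all.

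Genes of the class II route, in which Ctss acts, were called higher in 8 of 8, with a median of 2.18. Cd74, the invariant chain, rose from 156 ± 11.2 to 620 ± 12.0 CPM, by 1.99 ± 0.061 against 1.66 ± 0.044 for Ctss. The class II chain genes H2-Aa (2.66), H2-Ab1 (2.94) and H2-Eb1 (2.54) rose more than either on the log2 scale, though differences between genes were not tested.

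Markers of cell types moved in the same libraries, and in bulk tumours more cells of a type and more RNA per cell cannot be told apart. Macrophage markers were called higher in 12 of 12 (median 2.16), and their summed level went from 1079 and 1126 to 4653 and 4681 CPM, with none at 0. Dendritic cell markers were higher in 6 of 8 and mast cell markers in 5 of 6, and neither list had a lower call. Osteoclast markers, set beside Ctsk, were higher in 4 of 6 tested, Acp5 among them, with Calcr at 4 reads in all. Fibroblast markers were higher in 1 and lower in 8 of 10 (median -0.97), and their sum went from 738 and 753 to 558 and 562 CPM. Their summed TPM went the other way, from 402 and 394 to 454 and 472. Neutrophil markers were lower in 4 of 7, erythroid in 6 of 6 and endothelial in 5 of 7, with 1 endothelial marker higher. The summed level fell for the neutrophil and erythroid lists. That of the endothelial list did not, at 136 and 135 CPM in saline and 137 and 140 CPM in vanoxerine. T and NK cell markers were higher in 2 and lower in 2 of 9, B and plasma cell markers higher in 1 of 6, and muscle and fat markers higher in 1 and lower in 2 of 5. Of the epithelial markers, which check the labelled tissue, Cdx2 had no read, Krt20 had 47 reads in all, and Epcam went from 2.02 ± 0.378 to 4.11 ± 0.149 CPM, with 3 of 6 tested higher. The part of any of these cell types in the cathepsin changes was not tested.

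Among 6094 other genes whose mean log2 CPM reached 5, the pattern nearest to the median of the 10 genes over the 4 libraries was that of Slamf7. It went from 61.1 and 63.1 to 152 and 151 CPM, a Euclidean distance of 0.021 between mean-centred log2 CPM. Csf2rb, Rilpl2, Ralgds and Slc35f6 followed, at 0.044 to 0.049. With 4 libraries in 2 groups, such likeness mainly reflects a similar log2 fold change, here 1.27 to 1.35.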

How the data were processed

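Per the submitters' processing notes, the authors used fastp, Salmon 1.3.0 and DESeq2 on GRCm38, with annotation release, read length and strand setting not given in the sources used here. Per the file headers, the deposited files give for each of 140992 transcripts Salmon's estimated count, TPM (scaled to transcript length and library total) and effective length. From the authors' deposited comparison, log2 fold changes and p-values (raw and adjusted) were copied as they stand, named per the file headers. Its 4 library columns carry numbers that match no sample and were not used.

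Transcripts were assigned to genes with GENCODE M21 (139791 of 140992 matched), and estimated counts were summed per gene and rounded. Libraries held 67289273 to 75748162 estimated reads, of which 2.58% to 3.48% were mitochondrial. The test was edgeR 4.0.16 (R 4.3.3) with TMM factors, its default filter (minimum count 10, total 15) and the quasi-likelihood test without a block, fitted over all 18758 genes and checked on simulated data. CPM is scaled to library size and TMM factor. Alternatives used DESeq2 1.42.0 and limma 3.58.1, other scalings, filters and transcript sets, log2(TPM + 1) and log2(TPM + 0.1), a block and leaving out each library. The 10 genes, the gene lists and the tests were chosen with earlier results of these data known. Genes named beside the 10 are the tested ones of the 2 lists of cathepsins and inhibitors, the 4 with the smallest p of the lists on sorting and on class II with Lgmn, Cd74 and Tfeb (1 of these genes is not reported here), and the 5 nearest in pattern; others are said to be named after their values were seen or belong to a marker list. Transcripts named hold at least 5% of a gene's TPM in some library.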

Additional observations from a re-analysis of the deposited data

How the results depend on the processing

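All 10 genes stayed higher under each of the 18 alternatives. The number called higher was 7 with upper-quartile factors, 9 with library totals, with the length offset and with protein-coding transcripts only, and 10 under the others, apart from leaving out a library, where it was 7 to 10; none was called lower. Ctsa also missed the threshold with library totals (0.16, edgeR adjusted p = 0.0556), the length offset (0.32, 0.0549) and protein-coding transcripts (0.13, 0.108). The count of all genes called was 4309 with the length offset against 6916, and 3107 to 9708 without 1 library; where a library is left out, the single library remaining in that group was taken to have the spread of the other. The share of calls that were higher was 56.9%, but 39.0% with upper-quartile factors and 82.5% and 83.0% with log2(TPM + 1) and log2(TPM + 0.1). Cstb, not called, changed sign to -0.088 with upper-quartile factors, -0.0066 with protein-coding transcripts and -0.040 without saline replicate 1, and was called at 0.15 without saline replicate 2 and at 0.30 with both log2(TPM) fits; Serpinb6b was at -0.0082 with protein-coding transcripts. With the replicate number as a block 6391 genes were called, and the 10 were still all called higher; same-numbered libraries share only a number, with a correlation of deviations of -0.013. The causes of these shifts were not tested. Depth limits Ctsf, Ctse and Stfa2, with 169, 523 and 374 reads in all.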
